A study of Mus musculus with 8 samples.

Results

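The interferon response genes described here are 9 genes: *Ifngr1*, a receptor chain, *Stat2*, *Irf9*, *Irf1* and *Irf7*, which encode transcription factors, and *Isg15*, *Ifit3*, *Gbp2* and *Bst2*, which encode effectors. They were taken by symbol from a table of estimated counts for 11911 genes, and all 9 passed the filter on low counts that left 11317 genes for testing. The libraries came from naïve CD4+ T cells of the spleen that had been activated for 36 hours through CD3 and CD28 with TGF-β, while antibodies blocked IFN-γ and IL-4, so that part of the culture turned into induced regulatory T cells (iT_regs_). Total RNA depleted of ribosomal RNA was sequenced from 4 *Foxp3 YFP-Cre* cultures, labelled WT1 to WT4, while cultures of the *Tdrd3 fl/fl/Foxp3 YFP-Cre* genotype gave 4 more, labelled KO1 to KO4. Both genotypes carry YFP and Cre at the *Foxp3* locus, both are on the C57BL/6J background, and the age of the mice used for RNA-seq is not given in the sources used here. Cre is made only where *Foxp3* is transcribed, and no sort of YFP+ cells before RNA isolation is named, so cells that never deleted *Tdrd3* can contribute to every KO library. In such bulk RNA, fewer cells of a type and less RNA per cell cannot be told apart.

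Interferons are cytokines that put cells into an antiviral state. Type I interferons bind the receptor made of IFNAR1 and IFNAR2, whose kinases JAK1 and TYK2 lead to the assembly of a complex with STAT2 and IRF9 on the interferon-stimulated response element (ISRE), whereas IFN-γ binds IFNGR1 and IFNGR2, whose kinases JAK1 and JAK2 signal to genes with a gamma-activated site (GAS). In CD4+ T cells both pathways act during activation, and IFN-γ drives T_H_1 differentiation, which is why it is blocked when iT_regs_ are made in vitro.

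The targeted gene was examined first. *Tdrd3* (ENSMUSG00000022019) had 18.8, 15.1, 9.95 and 17.7 CPM (counts normalized by TMM and scaled to the library's total over tested genes) in the libraries labelled WT1 to WT4, and 13.7, 10.7, 12.9 and 11.1 CPM in those labelled KO1 to KO4. Between the means of 15.4 ± 3.95 and 12.1 ± 1.43 CPM (SD, n = 4) the log2 fold change was −0.35 (unadjusted P 0.037, edgeR adjusted p 0.496), which is lower at the cutoff of the study described below. This call was lost without WT1, WT2, WT4, KO2 or KO4, with unadjusted P-values of 0.166, 0.0502, 0.110, 0.0926 and 0.0850. The library labelled WT3 was below every KO library, so *Tdrd3* goes against its label, and without it the log2 fold change was −0.51 (unadjusted P 0.000484). Counts per gene do not show the floxed exons apart from the others. Wherever a direction is given below, it is therefore between libraries as labelled. Total counts lay between 13258239 and 16001676 and did not separate WT from KO libraries (exact permutation test, two-sided, on log2 totals, p = 0.743). At this depth 3 counts correspond to 0.188 to 0.225 CPM. All 10 T cell markers examined were detected in every library, with a summed level of 2616, 2603, 2709 and 2662 CPM in WT1 to WT4 and of 2563, 2628, 2597 and 2605 CPM in KO1 to KO4. *Cd4* was the most abundant of them in CPM, with a mean of 620 CPM, and *Lck* per kb of exon, with 171 CPM per kb. None of these markers was past the study's cutoff. With edgeR, *Cd247* and *Cd28* had unadjusted P-values of 0.0314 and 0.0353. Both were lower in the KO libraries, which is 20% of the list beside 4.91% of all tested genes. *Foxp3* (ENSMUSG00000039521) had 117, 122, 107 and 93.8 CPM in the WT libraries and 77.2, 105, 93.2 and 78.1 CPM in the KO libraries, in the same order of replicates. KO1 and KO4 were thus the libraries with the least *Foxp3* RNA, and KO2 overlapped the WT libraries. The log2 fold change of *Foxp3* was −0.31 (unadjusted P 0.00212, edgeR adjusted p 0.152), also lower at that cutoff, and it was just short of the fold cutoff without WT2, KO1 or KO4, at −0.26, −0.25 and −0.26. Its adjusted p was 0.0416 with limma voom, and with edgeR 0.0337 without WT4 and 0.0104 without KO2. In the other direction, it was 0.425 with DESeq2, and with edgeR 0.591 without KO1 and 0.534 without KO4. Without KO1 and KO4 together, a setting chosen after the values were seen, neither gene was past the cutoff, with *Tdrd3* at −0.39 (unadjusted P 0.0652) and *Foxp3* at −0.15 (unadjusted P 0.111). The labels count more libraries per genotype than the replicates that the Methods name, so whether each library came from another mouse is open. The closest libraries of each genotype were WT1 and WT2, with a chi-square of 2.7 per degree of freedom, and KO1 and KO4, with 2.59, against 3.78 to 6.31 for the other pairs. With these pairs summed, which was also chosen after the values were seen, *Tdrd3* was at −0.32 (unadjusted P 0.0808) and *Foxp3* at −0.23 (unadjusted P 0.0354), neither past the cutoff.

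Of the 9 interferon response genes, *Irf7* was lower in the KO libraries at the cutoff of the study, which asks for an unadjusted P under 0.05 together with a difference of 1.2-fold or more, here in edgeR's quasi-likelihood test, and the other 8 were not past it in either direction. This is 11.1% of 9 genes, where 3.47% of all tested genes passed the same cutoff, 1.70% of them lower and 1.78% higher. *Irf7* and *Ifngr1* had an unadjusted P below 0.05, as did 9.30% of all tested genes. These were also the 2 genes in which every KO library lay below every WT library, including the library labelled WT3. Across all tested genes the genotypes did not overlap in 4.89%, of which the KO libraries were lower in 2.63% and higher in 2.25%. None of the 9 had a Benjamini-Hochberg adjusted p below 0.05 in edgeR's test over all tested genes, where 0.265% did. DESeq2 also gave 0 of the 9, and limma voom with quality weights gave 1, *Ifngr1*, with an adjusted p of 0.0478, where 0.716% of all tested genes passed with DESeq2 and 0.839% with voom. Log2 fold changes of KO over WT were negative in 6 of the 9 and positive in 3, with a median of −0.14 beside 0.001 for all tested genes. Without the library labelled WT3, *Irf7* had a log2 fold change of −0.82 (unadjusted P 0.0142) and *Ifngr1* one of −0.20 (unadjusted P 0.00518). A fold cutoff of 1.5, which the Methods name as well, was applied after the data were seen. *Irf7*, with a 1.75-fold difference, was lower at this cutoff too, as were 0.566% of all tested genes. The 9 genes were chosen with earlier results of these data known, so these shares describe them and are not a test.

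**Figure D1:**
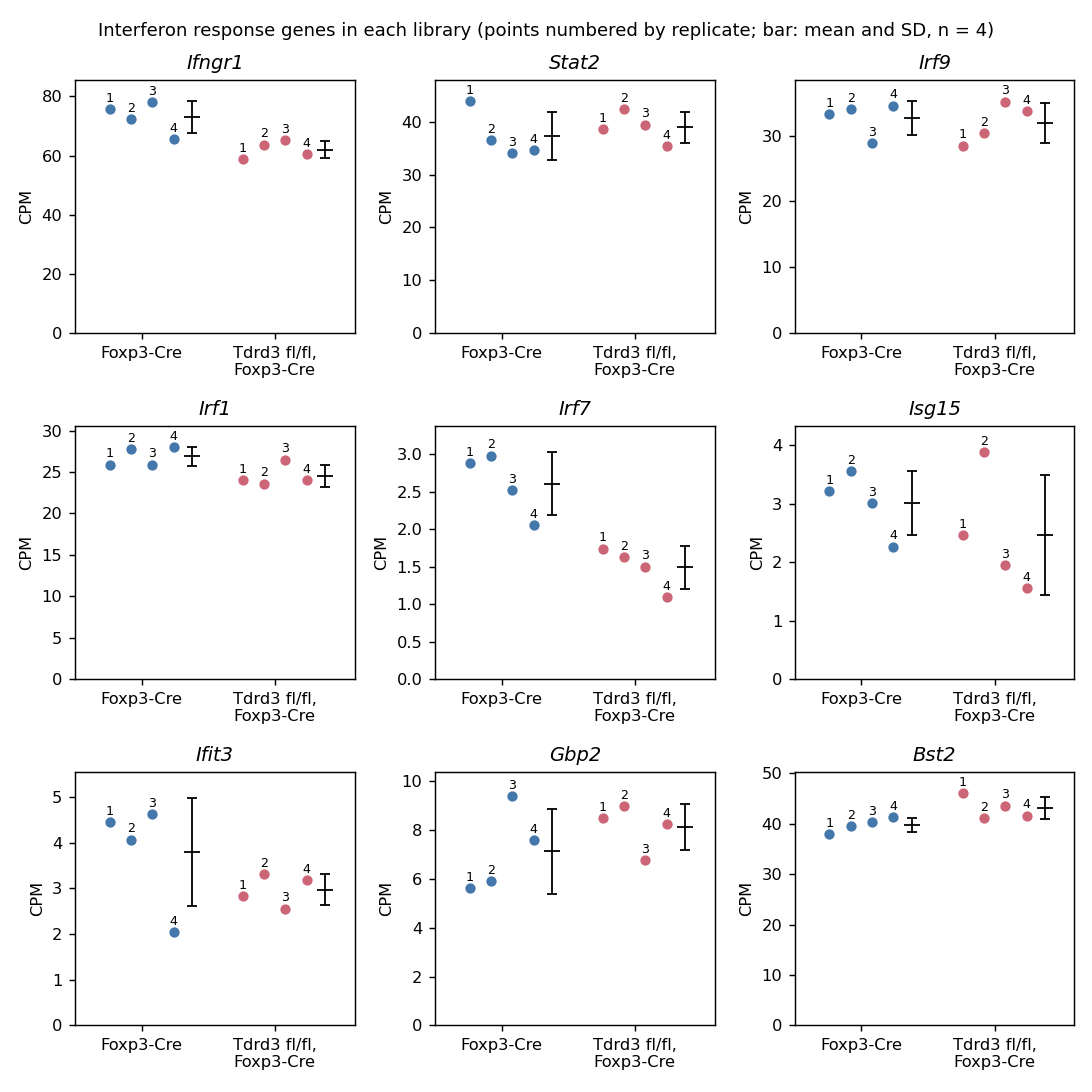
Normalized CPM (vertical axes, from 0) of the 9 interferon response genes in each *Foxp3 YFP-Cre* (blue, WT1 to WT4) and *Tdrd3 fl/fl/Foxp3 YFP-Cre* library (red, KO1 to KO4), with points numbered by replicate and black bars for the mean and SD (n = 4). The 4 KO points lie below all 4 WT points for *Irf7*, where they range from 1.09 to 1.74 CPM, and for *Ifngr1*, where they range from 58.7 to 65.2 CPM, and the genotypes overlap in the other panels.

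*Ifngr1* encodes the chain of the IFN-γ receptor that binds the cytokine. It had 75.8, 72.2, 78.0 and 65.6 CPM in WT1 to WT4 and 58.7, 63.7, 65.2 and 60.5 CPM in KO1 to KO4. Every KO library was below every WT library, but the highest of them, KO3, nearly reached the lowest WT library, WT4. The means were 72.9 ± 5.43 and 62.0 ± 2.97 CPM (SD, n = 4), a log2 fold change of −0.23 (standard error 0.0612), which is a 1.18-fold difference and falls short of the fold cutoff. The unadjusted P was 0.00117 and edgeR's adjusted p 0.124. Without WT4 the log2 fold change was −0.28 and the edgeR adjusted p 0.0273, and over the 17 alternative settings the adjusted p ranged from 0.0273 to 1.00. The gene (ENSMUSG00000020009) occupies bases 19467697 to 19485977 of chromosome 10 in GRCm39, plus strand.

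Of 16 genes for interferon receptors and signalling, 15 were tested, and none was past the study's cutoff. With edgeR, 3 had an unadjusted P below 0.05, all of them lower in the KO libraries, which is 20% beside 4.91% of all tested genes, and 0 had an adjusted p below 0.05. They were *Ifnar2*, a type I interferon receptor chain, *Il10rb*, which is shared by the receptors of type III interferons and IL-10, and the kinase gene *Tyk2*. *Il10rb* had 50.5, 59.6, 49.1 and 50.5 CPM in WT1 to WT4 and 43.2, 43.1, 44.0 and 49.7 CPM in KO1 to KO4, with KO4 inside the WT range. *Ifnar2* ranged from 34.4 to 36.7 CPM in the WT and from 28.9 to 33.8 CPM in the KO libraries without overlap, with a log2 fold change of −0.16 and an unadjusted P of 0.0349. Both genes share exonic bases with *Gm21970* on the same strand, 747 for *Ifnar2* and 1712 for *Il10rb*, so their estimated counts are uncertain. The largest difference of the list was in *Usp18*, the gene of a protease that removes ISG15 from proteins, with 1.63 to 2.33 CPM in the WT and 1.02 to 1.69 CPM in the KO libraries, a log2 fold change of −0.54 and an unadjusted P of 0.0806. *Ifngr2*, the second chain of the IFN-γ receptor, had a log2 fold change of 0.04 (standard error 0.0600). Per kb of exon, the phosphatase gene *Ptpn6*, *Stat3* and the kinase gene *Jak1* were the most abundant of the list, with means of 128, 73.4 and 37.1 CPM per kb, and their log2 fold changes were −0.04, 0.09 and −0.04.

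*Irf7* encodes the regulatory factor that amplifies type I interferon production once the pathway is active, and it is itself an interferon-induced gene. It had 2.88, 2.98, 2.52 and 2.05 CPM in WT1 to WT4 and 1.74, 1.63, 1.5 and 1.09 CPM in KO1 to KO4. The KO libraries were all below the WT libraries, with WT4 the lowest of one genotype and KO4 the lowest of the other. These values rest on 42, 41, 36 and 29 counts in the WT and 24, 26, 20 and 16 counts in the KO libraries, and so few counts leave wide counting error. The mean was 2.61 ± 0.419 CPM in WT and 1.49 ± 0.286 CPM in KO libraries (SD, n = 4), a log2 fold change of −0.80 (standard error 0.273, 95% confidence interval from −1.38 to −0.23). The unadjusted P of *Irf7* was 0.00826, rank 324 of the tested genes, and its edgeR adjusted p was 0.288. With the closest libraries summed, it was −0.75 (unadjusted P 0.0206). *Irf7* was past the study's cutoff in each of the 17 alternative settings and had an adjusted p below 0.05 in 0 of them, with a range from 0.155 to 1.00. Of the single libraries left out, KO4 brought it nearest to the threshold, at −0.68 (unadjusted P 0.0295), and without KO1 and KO4 together it was −0.73 (unadjusted P 0.0434). It (ENSMUSG00000025498) occupies bases 140842619 to 140846398 of chromosome 7 in GRCm39, minus strand, where 63 of its exonic bases overlap *Phrf1* on the opposite strand. *Irf1* and *Isg15* have larger overlaps of this kind, with genes that have no estimated counts here. *Irf1* shares 1467, 619 and 405 exonic bases with *Gm17334*, *Gm12216* and *Gm74496*, and *Isg15* shares 243 with *Gm46878*.

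*Irf1*, a factor induced by IFN-γ that binds the promoters of many antigen presentation and guanylate-binding protein genes, had 25.9, 27.8, 25.9 and 28.0 CPM in WT1 to WT4 and 24.0, 23.6, 26.5 and 24.0 CPM in KO1 to KO4. KO1, KO2 and KO4 lay below all WT libraries, and KO3 lay among them. *Irf1* had a log2 fold change of −0.14 (standard error 0.0750) and an unadjusted P of 0.0858. *Stat2* and *Irf9* encode subunits of the complex that type I interferons activate. *Stat2* had 43.9, 36.6, 34.1 and 34.7 CPM in the WT and 38.6, 42.5, 39.5 and 35.4 CPM in the KO libraries. WT1 was the highest of the 8 libraries and the other 3 WT libraries included the lowest, so the genotypes overlapped, with a log2 fold change of 0.06 (standard error 0.0820). It was 0.15 without WT1 (unadjusted P 0.066), 0.11 without KO4, 0.03 without WT4 and 0.02 without the library labelled WT3 or KO2. *Irf9* had 33.3, 34.1, 28.9 and 34.6 CPM in the WT and 28.5, 30.4, 35.2 and 33.8 CPM in the KO libraries. The library labelled WT3 and KO1 were the low ones of their genotypes. For *Irf9* the log2 fold change was −0.03, with a 95% confidence interval from −0.20 to 0.14, and it became 0.02 without KO1. *Irf9* shares 282 exonic bases with *Rnf31* on the same strand of chromosome 14, 31.8 Mb before *Tdrd3*.

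None of the 8 other regulatory factor genes that were tested passed the study's cutoff, and 2 had an unadjusted P below 0.05 in opposite directions, which is 12.5% lower and 12.5% higher, beside 4.91% and 4.38% of all tested genes. *Irf4*, which is induced by T cell receptor signals and is needed for effector T_reg_ programs, had 953, 951, 926 and 961 CPM in WT1 to WT4 and 1081, 932, 979 and 1110 CPM in KO1 to KO4. KO1, KO3 and KO4 were above all WT libraries, whereas KO2 was inside their range. *Irf4* had a log2 fold change of 0.11 (unadjusted P 0.0249, edgeR adjusted p 0.446). *Irf2bp2*, a corepressor gene, had a log2 fold change of −0.15 and an unadjusted P of 0.0126. *Irf8*, which with *Irf4* and *Irf2bp2* was among the most abundant genes of this list per kb, had a log2 fold change of 0.08. The mean levels of the 3 were 201 CPM per kb for *Irf4*, 73.6 CPM per kb for *Irf8* and 41.4 CPM per kb for *Irf2bp2*, against 0.542 CPM per kb for *Irf7*.

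Of the 4 effector genes, none passed the study's cutoff. *Isg15* encodes a ubiquitin-like modifier that is attached to other proteins after interferon exposure. It had 3.22, 3.56, 3.01 and 2.27 CPM in WT1 to WT4 and 2.47, 3.89, 1.95 and 1.56 CPM in KO1 to KO4. KO2 was the highest of all 8 libraries and the other 3 KO libraries included the lowest. Between the genotypes the log2 fold change was −0.28 (standard error 0.28), and without KO2 it was −0.60 with an unadjusted P of 0.0492, just past the cutoff. It was −0.18 without KO3, −0.11 without KO4 and −0.03 without KO1 and KO4 together, with unadjusted P-values of 0.555, 0.706 and 0.929. *Ifit3* encodes a protein of the complex that holds back viral RNA lacking the host's cap methylation. It had 4.45, 4.07, 4.63 and 2.05 CPM in the WT and 2.83, 3.32, 2.56 and 3.19 CPM in the KO libraries. The KO libraries lay between WT4, which was the lowest of the 8, and the other 3 WT libraries. The log2 fold change of *Ifit3* was −0.35 (standard error 0.249) and an unadjusted P of 0.177, and without WT4 it was −0.56 with an unadjusted P of 0.0216. Of its canonical transcript, 26.6% of all windows of 100 bases occur without mismatch in *Ifit3b*, so its level is uncertain. Estimated counts that are not whole numbers can come from reads divided between genes. They were 8 of 8 for *Ifngr1*, 6 for *Ifit3*, 5 for *Irf1*, 4 for *Stat2* and 2 for *Irf9*. *Isg15* had 1, and the other 3 of the 9 genes had 0. The canonical transcript of *Ifngr1* shared 0 windows of 100 bases with another gene, and the cause of its fractions was not tested. *Ifit3b* itself had 2.26, 2.26, 1.75 and 0.850 CPM in the WT and 1.45, 0.878, 2.03 and 2.72 CPM in the KO libraries, with a log2 fold change of −0.02. *Ifit1*, *Ifit1bl1* and *Ifit2*, the other genes of the family that were examined, had log2 fold changes of 0.09, −0.34 and 0.06, each with overlapping genotypes.

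*Gbp2* encodes a guanylate-binding protein, a GTPase that attacks the membranes around intracellular pathogens. It had 5.61, 5.89, 9.39 and 7.58 CPM in WT1 to WT4 and 8.49, 8.96, 6.76 and 8.22 CPM in KO1 to KO4. WT1 and WT2 were below every KO library, and the library labelled WT3 was above them all. For *Gbp2* the log2 fold change was 0.19 (standard error 0.168), and without the library labelled WT3 it was 0.35 with an unadjusted P of 0.0472, whereas it was 0.09 without WT1 and 0.11 without WT2. *Bst2* encodes tetherin, which holds budding virus at the cell surface. It had 37.9, 39.6, 40.3 and 41.3 CPM in the WT and 46.1, 41.2, 43.6 and 41.6 CPM in the KO libraries. KO2 was just below WT4, and the other 3 KO libraries were above all WT libraries. *Bst2* had a log2 fold change of 0.12, with a 95% confidence interval from −0.02 to 0.25 and an unadjusted P of 0.0816. With a library left out, *Ifngr1* and *Ifit3* thus passed the study's cutoff without WT4, *Isg15* without KO2 and *Gbp2* without the library labelled WT3, and *Irf7* passed it each time.

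The levels of the 9 genes per kb of exon covered a wide range. *Bst2* had the highest mean, 34.1 CPM per kb, followed by *Ifngr1* with 23.7 CPM per kb. In WT libraries their levels were 32.7 ± 1.19 and 25.6 ± 1.91 CPM per kb (SD, n = 4), and the order was the same in KO libraries, at 35.5 ± 1.86 and 21.8 ± 1.04 CPM per kb. *Stat2*, *Irf9* and *Irf1* followed with means of 6.05, 5.58 and 5.50 CPM per kb, and in WT libraries these neighbours did not differ beyond their SDs of 0.715, 0.453 and 0.24 CPM per kb. The other effectors were below them, with 3.51 CPM per kb for *Isg15*, 2.97 for *Gbp2* and 1.18 for *Ifit3*, of which *Isg15* and *Gbp2* overlapped within their SDs in KO libraries. *Irf7* was the least abundant at 0.542 CPM per kb, and its mean CPM was above that of only 7.96% of the tested genes. The receptor chain and *Bst2* were thus measured from more counts, whereas *Irf7*, *Isg15*, *Ifit3* and *Gbp2* were each at most 9.39 CPM in any library.

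The 9 genes did not vary as a block. Over the 8 libraries, Pearson's r between their log2 CPM was positive in 15 of 36 pairs and negative in 20, with a median of −0.08. The highest r was 0.82, between *Ifngr1* and *Irf7*, followed by 0.72 between *Irf7* and *Isg15* and 0.71 between *Ifngr1* and *Ifit3*. The lowest was −0.79, between *Ifngr1* and *Bst2*. These values describe 8 libraries of 2 genotypes, which share the genotype difference itself. The mean z-score of the 9 genes was 0.35, 0.35, 0.25 and −0.11 in WT1 to WT4 and −0.25, 0.04, −0.07 and −0.56 in KO1 to KO4. WT4 thus lay among the KO libraries, KO3 was closest to it, and KO4 was the lowest. The 5 genes whose log2 CPM followed this mean most closely were *Shisa5*, *Galnt10*, *Gramd2b*, *Thy1* and *P2ry10*, with r from 0.98 to 0.96 (n = 8 libraries), but with so few libraries 346 genes, or 3.06% of those tested, reached an r of at least 0.8.

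Promoters were compared for the motifs that the interferon pathways use. The genes were chosen as interferon response genes, so a share of these motifs above that of all promoters follows from the choice. It says nothing about the genotypes. In GRCm39, windows from 250 bases before to 50 bases after the start of each canonical GENCODE transcript were searched on both strands for GAAANNGAAA, the core of the ISRE, and for TTCNNNGAA, the GAS. GAAANNGAAA occurred in 5 of the 9 promoters (55.6%) and in 3.53% of the promoters of all 11910 listed genes with a transcript. TTCNNNGAA occurred in 2 of the 9 (22.2%) and in 7.57% of all promoters. The 30-base windows below hold the first ISRE match of each gene or, for *Irf1*, its GAS match, written in the direction of transcription, and capitals mark every matching base of either motif. They are shown because genes with such a match had log2 fold changes in both directions, and the gene with the largest difference, *Irf7*, had neither motif in its window.
Stat2 (chr10:128106135-128106164, plus strand): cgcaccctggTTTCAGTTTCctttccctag
Isg15 (chr4:156285328-156285357, minus strand): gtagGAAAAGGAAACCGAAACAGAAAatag
Ifit3 (chr19:34560763-34560792, plus strand): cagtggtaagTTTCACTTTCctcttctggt
Gbp2 (chr3:142326355-142326384, plus strand): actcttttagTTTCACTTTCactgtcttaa
Bst2 (chr8:71990227-71990256, minus strand): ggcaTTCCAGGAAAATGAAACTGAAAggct
Irf1 (chr11:53660741-53660770, plus strand): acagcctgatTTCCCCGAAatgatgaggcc

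The first ISRE match began 207 bases before the transcript start in *Stat2*, 126 in *Ifit3*, which has 2, and 50 in *Isg15*, where it is the first of 3 matches that overlap in a chain. In *Bst2* the first of 2 overlapping ISRE matches began 132 bases before the start and overlaps a GAS match, and in *Gbp2* the match began 16 bases after the start, within the transcript. *Ifngr1*, *Irf9* and *Irf7* had no match to either motif in these windows, which says only that these letters are not there. *Stat2*, *Gbp2* and *Bst2*, with an ISRE match, had positive log2 fold changes, whereas *Isg15* and *Ifit3*, also with a match, had negative ones, and none of these 5 passed the study's cutoff. Among genes listed as induced by type I interferon, 32.8% of 58 promoters held GAAANNGAAA, and among those induced by IFN-γ 35.3% of 34 did.

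Beyond the 9 genes, 173 further genes of the pathway were listed by role, of which 134 were analysed and 128 tested. At the study's cutoff 7 were lower and 0 higher in the KO libraries, which is 5.47% of those tested against 3.47% of all genes, or 1.70% in the lower direction. With edgeR, 29 had an unadjusted P below 0.05, or 22.7% beside 9.30% of all tested genes, and 1 had an adjusted p below 0.05, or 0.781% beside 0.265%. The 29 were 25 lower and 4 higher, which is 19.5% and 3.12% of those tested, beside 4.91% lower and 4.38% higher among all tested genes. At the fold cutoff of 1.5, *Ifi203* and *Gbp6* were lower, 1.56% beside 0.566%, and *Slfn1*, *Mndal*, *Gbp9*, *Tgtp2* and *Cgas*, with 1.2-fold to 1.49-fold differences, fell short of it. The median log2 fold change was −0.04, beside 0.001 for all tested genes. With DESeq2 7 genes were lower and 0 higher, and with limma voom 11 were lower and 1 was higher, which is 5.47% and 8.59% lower beside 1.6% and 2.13% of all tested genes. Without KO1 3 were lower and 2 higher, without KO4 5 and 2, and without both together 2 and 2. These are 2.34%, 3.91% and 1.56% lower, beside 1.36%, 1.40% and 1.03% of all tested genes, and 1.56% higher each time, beside 1.29%, 1.33% and 1.01%. Without WT2 7 were lower and 2 higher, and without the library labelled WT3 6 and 2, or 5.47% and 4.69% lower beside 1.61% and 1.65% of all tested genes, and 1.56% higher in both beside 1.93% and 1.6%. With the closest libraries of each genotype summed, 3 were lower and 1 higher, or 2.34% and 0.781% beside 1.28% and 1.30%. In that setting *Mndal*, *Gbp6*, *Gbp9* and *Cgas* were not past the cutoff, with unadjusted P-values of 0.0519, 0.108, 0.0608 and 0.0509, and *Slfn1* had an edgeR adjusted p of 0.322.

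**Figure D2:**
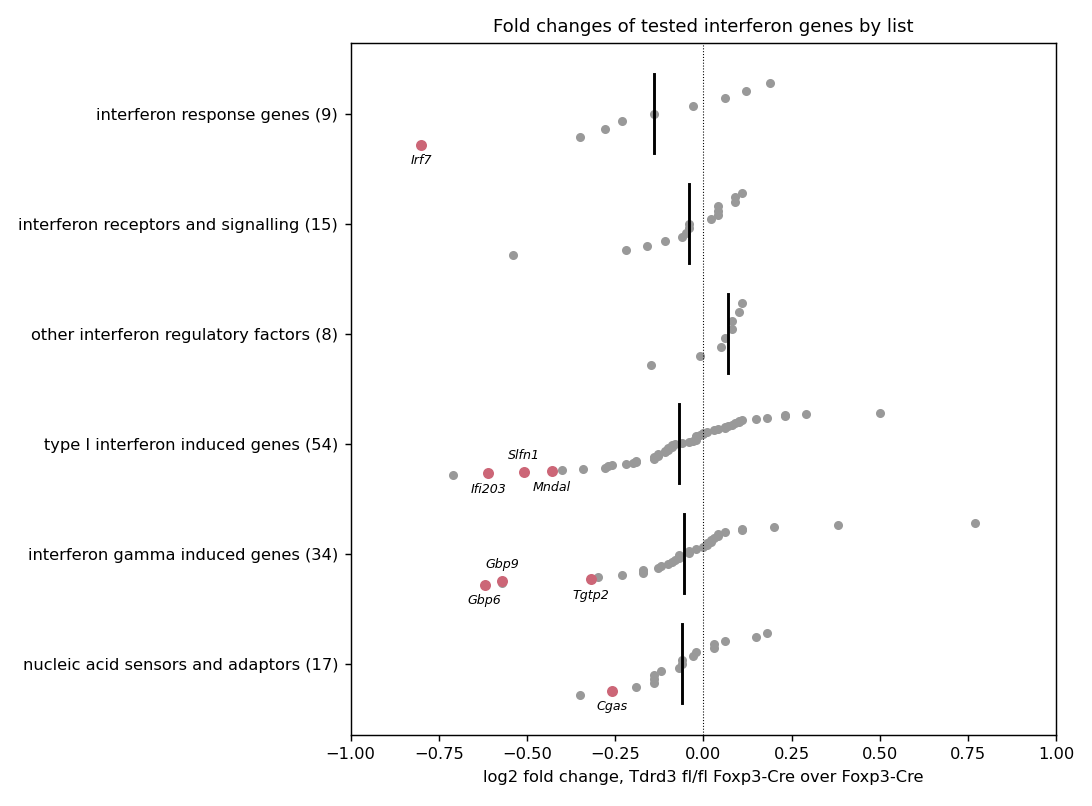
Log2 fold change of *Tdrd3 fl/fl/Foxp3 YFP-Cre* over *Foxp3 YFP-Cre* libraries (horizontal axis) for each tested interferon gene, grouped by list with the number of genes tested, and ordered by value within a list, so that height within a list has no meaning. Red points are genes past the study's cutoff, all of them left of 0, grey points are the other genes, and black bars are medians, which lie between −0.14 for the 9 interferon response genes and 0.07 for the other regulatory factors.

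Among 54 tested genes induced by type I interferon, 3 were lower at the study's cutoff, *Slfn1*, *Ifi203* and *Mndal*, which is 5.56% beside 1.70% of all tested genes, and 0 were higher. *Slfn1*, one of the Schlafen genes, a family that restrains T cell growth, had 14.4, 14.3, 16.3 and 14.7 CPM in WT1 to WT4 and 9.80, 11, 11 and 9.98 CPM in KO1 to KO4. The genotypes were well apart, and the library labelled WT3 was the highest of the 8. *Slfn1* fell by 0.51 on the log2 scale (standard error 0.105), and its edgeR adjusted p of 0.0439 was the only adjusted p below 0.05 among the interferon genes. This call was lost when WT1, WT2, the library labelled WT3, KO1, KO3 or KO4 was left out, with edgeR adjusted p-values of 0.131, 0.0901, 0.115, 0.208, 0.0708 and 0.198, or KO1 and KO4 together (0.894), while the log2 fold change stayed between −0.54 and −0.44 in all 17 alternatives. The most abundant genes per kb in this list were *Shisa5*, *Ly6e* and *Slfn2*, with means of 141, 67.0 and 50.3 CPM per kb. Their log2 fold changes were −0.09, −0.13 and −0.02, the first 2 with unadjusted P-values of 0.0393 and 0.0495. At an unadjusted P below 0.05 with edgeR, 18.5% of the list was lower, beside 4.91% of all tested genes. Higher were 3.7%, beside 4.38%, namely *Ifitm2* and *Ifih1*, both at 0.23 (unadjusted P 0.0295 and 0.0396). Every KO library was above every WT library for *Ifitm2*, and also for *Lap3*, at 0.11 (unadjusted P 0.0503).

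*Ifi203* and *Mndal* are members of the interferon-inducible p200 family, which bind DNA in the nucleus. *Ifi211*, of the same family, lies between them on chromosome 1. *Ifi203* had 56.2, 54.2, 69.4 and 50.3 CPM in WT1 to WT4 and 25.2, 55.6, 41.1 and 28.3 CPM in KO1 to KO4. *Mndal* had 49.6, 41.8, 56.6 and 43.8 CPM in the WT and 26.6, 51.5, 37.5 and 25.8 CPM in the KO libraries. KO1 and KO4 were low for both genes, at about the same level, whereas KO2 was within the WT range and KO3 was somewhat below it. The log2 fold changes were −0.61 for *Ifi203* and −0.43 for *Mndal*, with edgeR adjusted p-values of 0.139 and 0.329. Without KO1 and KO4, a setting chosen after these values were seen, they were −0.25 and −0.10 with unadjusted P-values of 0.0597 and 0.419, so neither was past the cutoff. Leaving out KO1 or KO4 alone gave *Mndal* an unadjusted P of 0.0540 or 0.0532, and DESeq2 gave it 0.0867. The adjusted p of *Ifi203* was 0.51 with DESeq2, and with edgeR 0.535 without KO1 and 0.496 without KO4. In the other direction, *Ifi203* had an adjusted p of 0.0341 with limma voom, and without KO2 edgeR's adjusted p was 0.00115 for *Ifi203* and 0.00437 for *Mndal*. *Ifi209*, of the same family, had 2.19, 2.84, 2.73 and 1.49 CPM in the WT and 0.581, 3.01, 0.827 and 1.09 CPM in the KO libraries, and its genotypes overlapped. *Ifi211* had 5.07, 4.29, 4.07 and 4.11 CPM in the WT and 4.94, 5.08, 5.04 and 3.74 CPM in the KO libraries. Its log2 fold change was 0.10, and its genotypes overlapped as well. KO1 and KO4 were also the KO libraries with the least *Foxp3* RNA and the most *Irf4* RNA. *Klf2* was at 22.2 and 24.4 CPM in them, at 45.3 and 44.3 CPM in KO2 and KO3 and at 51.2 to 63.0 CPM in the WT libraries. *Lyz2*, a macrophage marker, was at 0.653 and 1.22 CPM in KO1 and KO4 and at 0 in the other 6 libraries. *Cd68*, the other macrophage marker analysed, did not follow it, with 0.436 and 0.883 CPM in KO1 and KO4. It had 0.439 and 0.451 CPM in KO2 and KO3 and 0.479, 1.16, 0.491 and 1.13 CPM in WT1 to WT4. Whether these differences have a part in the values of the p200 genes was not tested.

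**Figure D3:**
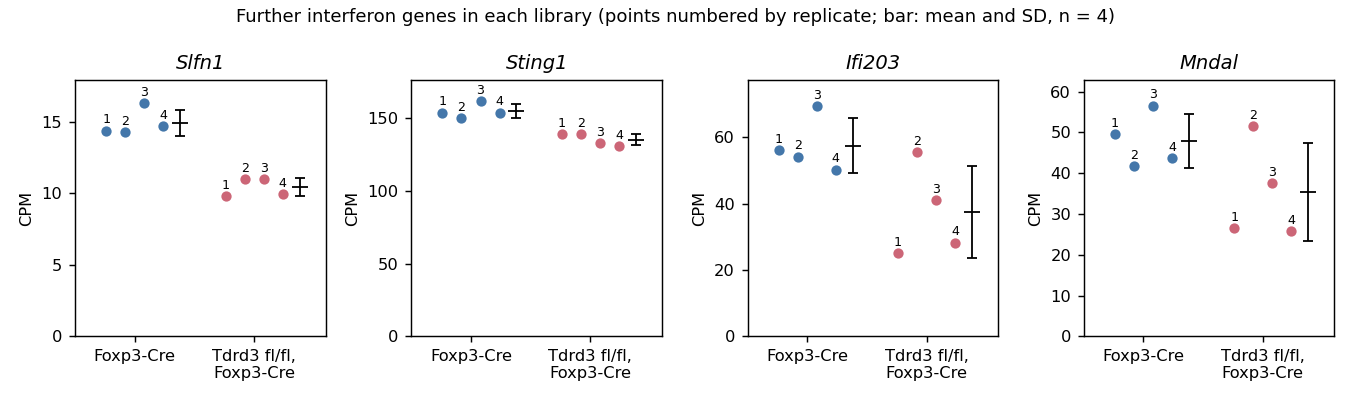
Normalized CPM (vertical axes, from 0) of *Slfn1*, *Sting1*, *Ifi203* and *Mndal* in each *Foxp3 YFP-Cre* (blue) and *Tdrd3 fl/fl/Foxp3 YFP-Cre* library (red), numbered by replicate, with the mean and SD (n = 4) as black bars. All KO points are below all WT points for *Slfn1* and *Sting1*, whereas for *Ifi203* and *Mndal* KO1 and KO4 are low and KO2, at 55.6 and 51.5 CPM, is among the WT values.

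Among 34 tested genes induced by IFN-γ, 3 were lower at the study's cutoff, or 8.82% beside 1.70% of all tested genes, and 0 higher. *Tgtp2*, an immunity-related GTPase gene, had 18.0, 18.2, 22.4 and 16.6 CPM in WT1 to WT4 and 14.4, 16.4, 15.0 and 14.5 CPM in KO1 to KO4. KO2 came close to WT4, and the genotypes did not overlap. The log2 fold change was −0.32 with an edgeR adjusted p of 0.255, and without the library labelled WT3 it was −0.22, below the fold cutoff. *Tgtp1*, a close relative of *Tgtp2*, had a log2 fold change of −0.02, and estimated counts of such relatives can exchange reads. *Gbp6* and *Gbp9*, which belong to the *Gbp* cluster of chromosome 5, were at 1.6 to 3.56 and 1.23 to 3.19 CPM over all libraries, with log2 fold changes of −0.62 and −0.57. Their unadjusted P-values were 0.0362 and 0.0418, and these calls were fragile. *Gbp6* was no longer past the cutoff without WT1, WT2, KO1, KO2 or KO4, with unadjusted P-values of 0.146, 0.0934, 0.0711, 0.0581 and 0.0695. *Gbp9* was no longer past it without WT2, WT4, KO1 or KO2, with unadjusted P-values of 0.0940, 0.0975, 0.129 and 0.0603. *Gbp9* shares 107 exonic bases with each of *Gbp4* and *Gbp8*, and *Gbp6* shares 1726 with *Gm43302*, on the same strand. The rest of the *Gbp* family went both ways, from −0.57 for *Gbp8* and −0.30 for *Gbp7* through 0.11 for *Gbp5* and 0.38 for *Gbp4* to 0.77 for *Gbp3* on the log2 scale, with an unadjusted P above 0.05 for each of these 5.

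The most abundant genes of this list per kb were *H2-K1*, *B2m* and *H2-D1*, which encode MHC class I chains, with means of 232, 222 and 186 CPM per kb and log2 fold changes of 0.00, −0.09 and −0.07, with unadjusted P-values of 0.906, 0.0968 and 0.0587. Of the whole list, 8 genes had an unadjusted P below 0.05, all lower, which is 23.5% beside 4.91% of all tested genes. The summed level of the list was 3812, 3809, 3691 and 3455 CPM in WT1 to WT4 and 3546, 3590, 3591 and 3536 CPM in KO1 to KO4. WT4 had the lowest sum of all 8 libraries. WT4 was also the lowest of the WT libraries for *Ifngr1*, *Irf7*, *Isg15* and *Ifit3*, but it was the highest of them for *Irf9*, *Irf1* and *Bst2*.

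Genes that detect nucleic acids and can start interferon production made up the next list. Of 17 tested, *Cgas* was lower at the study's cutoff, which is 5.88% beside 1.70% of all tested genes, and 0 were higher. *Cgas*, which encodes the sensor of cytosolic DNA, had 17.8, 18.6, 21.0 and 20.5 CPM in WT1 to WT4 and 14.7, 19.2, 16.8 and 14.1 CPM in KO1 to KO4. KO2 lay within the WT range. The log2 fold change of −0.26 is close to the fold cutoff, and *Cgas* was past that cutoff in 8 of the 17 alternatives. It was not without the library labelled WT3, WT4, KO1 or KO4, where its unadjusted P was 0.0644, 0.0534, 0.0706 and 0.0871. Without KO1 and KO4 together, *Tgtp2*, *Gbp6*, *Gbp9* and *Cgas* were all short of the cutoff, with unadjusted P-values of 0.0638, 0.158, 0.147 and 0.362. *Sting1*, which encodes the adaptor that receives the signal of cGAS, was the most abundant gene of the list, at 45.5 CPM per kb. It had 154, 150, 162 and 154 CPM in the WT and 139, 139, 133 and 131 CPM in the KO libraries. The genotypes did not overlap, and the log2 fold change was −0.19 (standard error 0.0433), where the unadjusted P was 0.000249 and the edgeR adjusted p 0.0671. Its fold change was therefore short of the study's cutoff although its P was the second smallest among the further interferon genes, after that of *Slfn1*. *Traf6* and *Rnaseh2c*, next in abundance at 35.2 and 17.9 CPM per kb, had log2 fold changes of 0.06 and 0.03. *Rnaseh2b* went the other way, with 40.2 to 43.7 CPM in the WT and 45.2 to 50.6 CPM in the KO libraries. Its log2 fold change of 0.18 (edgeR unadjusted P 0.00918) was short of the fold cutoff.

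Of 12 interferon genes, *Ifng* alone was analysed here. It had 0.685, 0.218, 0.981 and 0.354 CPM in WT1 to WT4 and 0.799, 0.0627, 0.301 and 0.475 CPM in KO1 to KO4, and it was too low to be tested. KO2 was below the 0.188 CPM that 3 counts give in that library, and the ranges of the genotypes overlapped. The values rest on 1 to 14 counts per library, and whether *Ifng* differed was not examined.

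Markers of other cell types that respond to or make interferon were low, with exceptions. Of 7 plasmacytoid dendritic cell markers 3 were analysed, *Irf8*, *Bst2* and *Tcf4*, with a summed level of 692, 724, 716 and 854 CPM in WT1 to WT4 and 802, 769, 783 and 797 CPM in KO1 to KO4. *Irf8* made up most of it, with a mean of 715 CPM, and activated T cells also express *Irf8* and *Bst2*. Of 7 macrophage and monocyte markers, *Cd68* and *Lyz2* were analysed, with a summed level of 0.479, 1.16, 0.491 and 1.13 CPM in the WT and 1.09, 0.439, 0.451 and 2.11 CPM in the KO libraries. *Cd68* was the more abundant, with a mean of 0.684 CPM. B cells were represented by 4 of 7 markers, led by *Cd79b*, with a sum of 2.46, 3.13, 4.35 and 4.32 CPM in the WT and 2.47, 2.57, 3.16 and 2.58 CPM in the KO libraries, where *Cd79a* was at 0 in KO1 and *Pax5* at 0 in KO4. *Pax5* was at 1.61 CPM in the library labelled WT3, from 23 counts, and at no more than 0.425 CPM in the other 7 libraries. The other B cell markers did not stand out there. *Cd79b*, *Cd79a* and *Ebf1* were at 1.54, 0.561 and 0.631 CPM in that library, within the range of the other 7. *Eomes*, the NK cell marker analysed of 5, ranged from 1.88 to 3.12 CPM, and *Zbtb46*, the conventional dendritic cell marker analysed of 5, from 4.58 to 7.60 CPM, with a log2 fold change of −0.35 and an unadjusted P of 0.0417, lower at the study's cutoff. It was not past it without WT1, WT2, KO1, KO3 or KO4, with unadjusted P-values of 0.106, 0.0944, 0.0814, 0.115 and 0.0688, or with the closest libraries summed (unadjusted P 0.108). The CD8 T cell markers *Cd8a* and *Cd8b1* summed to 9.93, 8.08, 21.8 and 7.72 CPM in the WT and 6.68, 7.15, 6.76 and 8.35 CPM in the KO libraries. *Cd8b1* was the more abundant in every library except the one labelled WT3. The library labelled WT3 also stood out with 11.3 CPM of *Cd8a*, where the other 7 libraries had between 0.436 and 1.37 CPM. Both were lower in the KO libraries at the study's cutoff, *Cd8a* at −2.15 (unadjusted P 0.00504) and *Cd8b1* at −0.36 (unadjusted P 0.0391), and without the library labelled WT3 neither was, at −0.43 (unadjusted P 0.329) and −0.22 (unadjusted P 0.198). *Cd8a* was not past it with limma voom either (unadjusted P 0.0647). *Cd8b1* was also not past it without WT1, KO1, KO2 or KO3, with unadjusted P-values of 0.0777, 0.0707, 0.0528 and 0.101. The library labelled WT3 was also the highest of the 8 for *Ifngr1*, *Ifit3*, *Gbp2*, *Slfn1*, *Ifi203*, *Mndal*, *Tgtp2*, *Cgas* and *Sting1*. In contrast, it was the lowest of the 8 for *Stat2*, at 34.1 CPM. It was the lowest of the WT libraries for *Irf9* and *Gbp9*, at 28.9 and 2.38 CPM. For *Irf1*, *Irf7*, *Isg15*, *Bst2* and *Gbp6* it was not the highest either. According to the Methods, the naïve cells came from a negative selection before culture, a step meant to remove other cells. The part of other cells in these values was not tested.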

How the data were processed

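RNA-seq was made from cultured cells, with 4 libraries per genotype. The authors aligned reads to GRCm39 (mm39) with STAR 2.7.8a in Partek Flow, estimated counts per gene with its E/M algorithm, which divides reads that match several genes, and filtered the table. The strand setting and annotation version are not given in the sources used here. The deposited values are estimated counts that are not normalized, and 43.0% are not whole numbers. The Methods give 3 replicates from independent mice and the labels 4, so whether the 4 libraries came from 4 mice is open. All 8 were used, and each was treated as a mouse.

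Estimated counts were rounded, filtered with filterByExpr (minimum count 10), which left 11317 of 11911 genes, normalized by TMM (factors 0.993 to 1.004) and tested for genotype with edgeR 4.0.16 under R 4.3.3 (glmQLFit and glmQLFTest, two-sided), and P-values were adjusted over all of them by the Benjamini-Hochberg method. CPM use TMM-scaled totals over the tested genes. Over all 11911 listed genes the totals lay between 13258239 and 16001676 before scaling. Floors of 3 counts cover counting error only. P-values measure the spread between libraries and would be too small if 2 of them came from 1 mouse. Libraries of a genotype differed with a chi-square of 2.59 to 6.31 per degree of freedom, more than counting error alone gives. Exon lengths, overlaps, coordinates and promoters came from GENCODE mouse release M39 on GRCm39, which held 11910 of the gene identifiers. Levels per kb divide CPM by the union of exons. Log2 CPM for correlations used a prior count of 2.

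The 9 genes and the lists were chosen with earlier results of these data known. Named genes are the 9, and of each further list those past the study's cutoff, the 3 most abundant per kb and the *Ifit* and *Gbp* relatives of the 9, and the 5 genes closest to the mean z-score. *Tdrd3*, *Foxp3* and *Ifng* were checks. Other genes were named after their values were seen, namely *Ifnar2*, *Il10rb*, *Tyk2*, *Ifngr2*, *Ifi209*, *Ifi211*, *Ifitm2*, *Ifih1*, *Lap3*, *Tgtp1*, *Usp18*, *Rnaseh2b*, *Cd247*, *Cd28*, *Pax5* and *Klf2*. Alternatives were DESeq2 1.42.0, voom with sample quality weights (limma 3.58.1), scaling by DESeq2 size factors or by library size alone, no filter or a filter of 10 counts in each library, a block for the replicate number, and each library left out. Leaving out KO1 and KO4 together, a sum of the closest libraries (WT1 with WT2 and KO1 with KO4) and a fold cutoff of 1.5 were added after seeing the data.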

Additional observations from a re-analysis of the deposited data

Results flagged for a closer look

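Among 32 groups of 4 libraries, from the 9 interferon response genes and the 7 further genes past the study's cutoff in both genotypes, 1 had a library far from the others. For *Irf1*, KO3 had 26.5 CPM, where KO1, KO2 and KO4 had 24.0, 23.6 and 24.0 CPM, so that its gap to the nearest of them made up a share of 0.836 of the whole range of the genotype, which is above Dixon's critical value at the 95% level for 4 samples. Chance flags about 1 in 20 groups.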

How the results depend on the processing

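Over 17 alternatives, 147 of 153 log2 fold changes of the 9 interferon response genes kept their direction and their side of the study's cutoff. In 4 a gene passed the cutoff that had not before, and in 2 the sign of *Irf9*, at −0.03, turned. It was 0.00 without KO1 and KO4 and ranged from −0.09 without the library labelled WT3 to 0.02 without KO1. The number of the 9 past the cutoff, 1, was between 1 and 3 when a library was left out and 1 otherwise. Of the 119 values of the 7 further genes past the cutoff, 88 stayed past it and 31 did not, and none changed sign. The count of further genes past the cutoff, 7, became 12 with voom, 4 without KO1 and KO4, 4 with the pairs WT1 and WT2 and KO1 and KO4 each summed, and lay between 5 and 10 when a library was left out, where 2.65% to 4.64% of all tested genes passed it. Over all tested genes, 30 had an adjusted p below 0.05 with edgeR, 81 with DESeq2, 95 with voom, 3 without KO1 and KO4, 3 with those pairs summed, and from 6 to 162 when a library was left out. The 393 genes past the study's cutoff became 235 without KO1 and KO4. With a fold cutoff of 1.5, chosen after seeing the data, they became 147, the further genes 2 and the 9 genes 1. With the replicate number as a block 87 genes had an adjusted p below 0.05 with edgeR, *Foxp3* (0.0161) and *Ifi203* (0.00805) among them, and *Gbp6* and *Cd8b1*, with unadjusted P-values of 0.0584 and 0.0631, were no longer past the study's cutoff. Deviations of same-numbered libraries from the mean of their genotype had correlations of −0.05, 0.00, −0.04 and 0.07. Those of libraries with different numbers lay between −0.10 and 0.09. So few libraries cannot show whether the numbers pair them, and the labels do not say so. If the summed pairs were single mice, fewer calls hold. Leaving a library out widened some errors and narrowed others. Without KO2 the standard error of *Ifi203* was 0.128 beside 0.165 with all libraries, and that of *Slfn1* was 0.118 beside 0.105. Why results changed between settings was not tested. *Irf7*, *Isg15*, *Ifit3*, *Gbp6* and *Gbp9* rest on few counts per library, and whether more depth would change their results was not tested. The estimated counts, as filtered by the authors, lacked 39 of 173 further genes, which were not analysed here. Whether the counts of these genes were low was not tested.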
